A study of Mus musculus with 2 samples.

Results

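The granin genes Scg2, Chga and Chgb and the neuropeptide genes Nppa, Gal, Grp, Nts and Npy were examined in single-cell RNA-seq (scRNA-seq) of the mouse utricle, as 8 of the 31053 genes in the count tables. These 8 genes were chosen by their levels in the cell clusters of an earlier look at the same 2 libraries, so the levels given here are a description and no test was made on them. The utricle is a vestibular organ of the inner ear whose mechanosensory hair cells (HCs) sit among supporting cells (SCs). Both groups were wild-type mice, at embryonic day 14 (E14) in one and postnatal day 2 (P2) in the other, and the study's tissue collection used a C57BL/6J background with animals of either sex pooled. Utricular sensory epithelia were detached with thermolysin, dissociated with Accutase and captured with 10x 3′ v3.1 chemistry. Each age is 1 library, so age, animals and library cannot be told apart, and no p-value is given.

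Granins are acidic proteins of dense-core vesicles, the organelles in which peptide hormones and neuropeptides are packed and from which they are released on a calcium signal. Neuropeptides are cut from longer precursors by prohormone convertases and trimmed by carboxypeptidase E, and they act on G protein-coupled receptors or, for natriuretic peptides, on receptor guanylyl cyclases. Granins are widely used as markers of neuroendocrine cells, and neuropeptides in the vestibular system are best known from efferent and afferent nerve fibers.

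In the GENCODE M21 annotation (GRCm38), Scg2 lay at chr1:79434669-79440120, Chga at chr12:102554969-102565028 and Chgb at chr2:132781278-132795079. Nppa lay at chr4:148000722-148002079, Gal at chr19:3409915-3414544, Nts at chr10:102481756-102490486 and Npy at chr6:49822710-49829507. RefSeq promoters (GRCm38.p6) were found for 7 of the 8 genes, and Grp had none in the table. The promoters of the 3 granin genes are shown because they encode proteins of the same class of vesicle and yet were found in different HCs below. Each line gives 30 bases around the element named next, 5′ to 3′ on the strand of the gene, for Chga at chr12:102554886-102554915, for Chgb at chr2:132781559-132781588 and for Scg2 at chr1:79440076-79440105 on the minus strand. Capitals mark the cAMP response element TGACGTCA in Chgb and Scg2, and TGACGTAA, which differs from it by 1 base, in Chga.
Chga: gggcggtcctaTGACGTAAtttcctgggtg
Chgb: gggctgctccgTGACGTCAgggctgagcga
Scg2: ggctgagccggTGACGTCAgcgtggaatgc
Within 250 bases before the start and on either strand, TGACGTCA was present in 508 of 32851 RefSeq promoters (1.55%) and in 2 of the 7 available here (Scg2 and Chgb). TGACGTAA or its reverse complement TTACGTCA, letters chosen after the Chga sequence was seen, were present in 147 (0.447%) and in Chga alone of the 7. The element starts 72 bases before the RefSeq start in Chgb, 68 in Scg2 and 44 in Chga. The annotations place the starts differently, and the elements of Chgb and Scg2 lie inside the gene as GENCODE M21 draws it, downstream of its first base, whereas that of Chga lies before the gene in both. A match describes the letters and not the use of the site, and a link between the element and the distribution of these genes over HCs was not tested.

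The libraries held 122892080 unique molecular identifiers (UMIs, each 1 captured transcript) at E14 and 57003553 at P2. After filters on genes, UMIs and mitochondrial share, and after removal of likely doublets, 10138 and 3877 cells remained, with medians of 6664 and 9795 UMIs. The libraries shared 23 barcodes, of which 10 were kept cells in both. Clusters are called HC-like where at least 3 of 10 HC markers stood out, which gave 157 cells at E14 (clusters 22 and 28) and 903 at P2 (clusters 2, 9, 13, 14, 16, 18 and 19), with median depths of 14600 and 15568 UMIs. All 10 HC markers were higher in HC-like than in other cells, by 30.1-fold to 560-fold at E14 and by 8.17-fold to 29.6-fold at P2. The same markers named the clusters, so these folds are no separate check of the name. Clusters without a name held 40.8% of the cells at E14 and 51.2% at P2. Levels are CPM, the summed UMIs of a gene in a group of cells scaled to 1000000 UMIs, given with exact 95% Poisson intervals, and ratios and shares carry exact binomial intervals. All intervals cover counting error only. The tables are 3′ counts, so a level compares 1 gene between cells and not 2 genes with each other.

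Between the ages, 3 of the 6 members with at least 10 UMIs in HC-like cells were at least 2-fold higher at P2, namely Scg2, Nppa and Gal, against 10.2% of 13257 genes tested in the same cells. None was at least 2-fold lower, against 5.26% of those genes, although Grp was close to that limit. The median over all genes was 0.03 on the log2 scale. Because the members were picked on these libraries, their share is printed beside the background only, and nothing is read from it.

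Scg2, which encodes secretogranin II, the precursor of secretoneurin, had 1 UMI in 157 HC-like cells at E14 and 445 UMIs in 903 at P2. Its level was 0.442 CPM (0.0112 to 2.46) at E14 and 35.5 (32.2 to 38.9) at P2, a ratio of 80.3 with an interval of 14.3 to 3179 that reflects the single UMI at E14. Chga, which encodes chromogranin A, was at 134 CPM (120 to 150) at E14 and 91.8 (86.6 to 97.3) at P2, a ratio of 0.684 (0.602 to 0.779). Chgb, which encodes chromogranin B, was at 58.3 CPM (48.8 to 69.2) and 85.5 (80.5 to 90.8), a ratio of 1.47 (1.22 to 1.77). Chga and Chgb stayed within 2-fold, in opposite directions. These directions depended on which barcodes were counted, since with doublets kept the ratio was 1.82 for Chga and 4.25 for Chgb, and with HCs taken cell by cell by their markers it was 1.22 and 2.50.

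Among the peptides, Nppa, the precursor of atrial natriuretic peptide, was at 10.2 CPM (6.44 to 15.2) in HC-like cells at E14 and at 62.5 (58.2 to 67.0) at P2, a ratio of 6.15 (4.07 to 9.76). Gal, the precursor of galanin, was at 60.5 CPM (50.8 to 71.5) and 217.5 (209 to 226), a ratio of 3.59 (3.03 to 4.30). Grp, the precursor of gastrin-releasing peptide, was at 466.5 CPM (439 to 495.5) and 246 (238 to 255), a ratio of 0.528 (0.492 to 0.567). This ratio moved with the choice of cells. It was between 0.399 and 0.488 with no filter on cells, with the mean over cells, at 4000 UMIs and with the mitochondrial limit at 30%. Under the stricter filter, where cells were also clustered and named anew, it was 177. There 46 E14 cells were named HC-like, with Grp at 1.47 CPM, while cluster 28 of the main analysis had 45 cells. Cluster 22, with 1055 of the 1056 Grp UMIs, had medians within the stricter limits (14553.5 UMIs and a mitochondrial share of 3.07%). The 177 therefore reflects which clusters were named HC-like and not the filter alone. Nts, the precursor of neurotensin, had 0 UMIs in HC-like cells at both ages. Npy, the precursor of neuropeptide Y, had 5 UMIs at E14 and 0 at P2. Nts and Npy had 0 UMIs in all 6251 barcodes of the P2 library, where 3 UMIs over the kept cells would correspond to 0.0671 CPM.

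**Figure D1:**
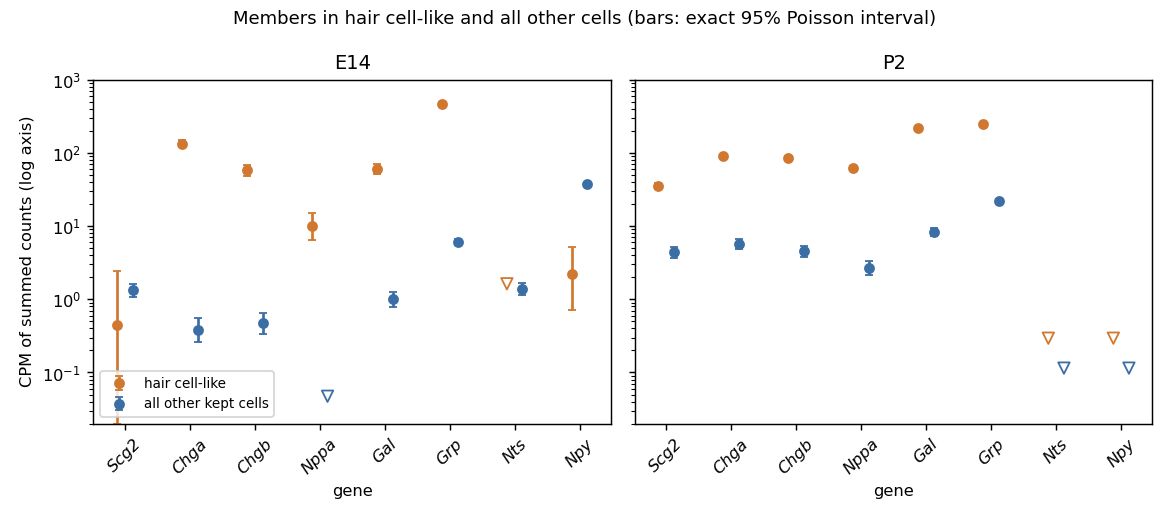
Level of each member in HC-like cells (orange) and all other kept cells (blue) at E14 (left) and P2 (right), as CPM on a log axis. Bars are exact 95% Poisson intervals and open triangles mark the upper interval bound where no UMI was found. Scg2 is at 0.442 CPM in HC-like cells at E14 and at 35.5 at P2, and Nts and Npy have no UMI at P2.

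Compared with all other kept cells at E14, Chga was 349-fold higher in HC-like cells (239 to 526), Chgb 122.8-fold (84.7 to 182), Grp 76.3-fold (68.5 to 85.2) and Gal 60.4-fold (45.4 to 80.9). Nppa had 23 UMIs in HC-like cells and 0 elsewhere, and was at least 264-fold higher against a floor of 3 counts over the other cells. These 5 of 8 members compare with 18.9% of 16803 genes that were at least 2-fold higher in HC-like cells at E14. Npy went the other way, at 37.7 CPM in other cells and 2.21 in HC-like cells. Scg2 was at 1.32 CPM in other cells, where 103 of its 104 UMIs lay, and its ratio of HC-like to other cells was 0.334 with a wide interval of 0.00838 to 1.90. HC-like cells held 2.82% of all kept UMIs at E14. At P2 all 6 detected members were at least 2-fold higher in HC-like than in other cells, from 8.09-fold for Scg2 (6.68 to 9.85) to 26.3-fold for Gal (23.2 to 29.9), against 18.4% of 15504 genes. Of the Scg2 UMIs in kept P2 cells, 75.9% were in HC-like cells.

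At a common depth of 4000 UMIs per cell, 35.3% of 156 E14 HC-like cells had a UMI of Chga, 17.3% of Chgb, 6.41% of Nppa, 8.33% of Gal and 57.1% of Grp, and none had one of Scg2. At P2 the shares in 768 cells were 10.3% for Scg2, 29.7% for Chga, 28.6% for Chgb, 16.9% for Nppa, 28.3% for Gal and 41.1% for Grp. The thinning left out 1 and 135 HC-like cells, and without it the P2 shares were 15.9% for Scg2, 55.4% for Chga, 59.9% for Chgb, 35.4% for Nppa, 35.3% for Gal and 50.8% for Grp. The unthinned E14 shares were 81.5% for Chga, 49.7% for Chgb, 14.0% for Nppa, 21.7% for Gal and 63.7% for Grp. As a background for free RNA, E14 mesenchymal-like cells (median 6981 UMIs) at the same thinned depth had shares of 0.0646% for Chga, 0.0969% for Chgb, 0% for Nppa and Gal and 0.388% for Grp. No class that should lack these genes was large at P2, and P2 SC-like cells (median 11495 UMIs) had 1.50% for Chga and Chgb, 0.501% for Scg2, 0.125% for Nppa, 1.13% for Gal and 3.25% for Grp. Each HC-like share other than that of Scg2 at E14 was above the background.

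The clusters split the HC-like cells by peptide. In E14 cluster 22 (112 cells, led by Ccer2, Pvalb and Lhfpl5), Grp was at 658 CPM (619 to 699), Gal at 84.2 (70.6 to 99.6) and Nppa at 13.1 (8.11 to 20.02). In E14 cluster 28 (45 cells, led by Lbx2, Pgam2 and Acbd7), Grp was at 1.51 CPM (1 UMI), Gal at 3.03 (2 UMIs) and Nppa at 3.03 (2 UMIs). Chga was level between them, at 135 CPM (118 to 155) in cluster 22 and 132 (106 to 163) in cluster 28, and Chgb was at 51.1 (40.7 to 63.5) and 75.7 (56.2 to 99.8). Both E14 clusters thus carried Chga and Chgb, while in cluster 28 none of Grp, Gal, Nppa and Nts had more than 2 UMIs and Npy had 3. By single cells, 88.4% of cluster 22 had a Grp UMI and 29.5% a Gal UMI, and in 5 cells Gal reached at least 10 UMIs with a maximum of 20.

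At P2, cluster 2 (293 cells, led by Gm4791, Nppa and Calb2, the gene for the calcium buffer calretinin) had the highest levels of Gal, at 352 CPM (336 to 369), and of Nppa, at 127 (117 to 137), and held 72.2% of the Nppa UMIs of the library. Cluster 9 (159 cells, led by Grp, Nnat and Grxcr1) combined Grp at 494 CPM (469.5 to 520) with Gal at 307 (287 to 327) and Nppa at 45.4 (38.1 to 53.6). Cluster 16 (95 cells, led by Hsd11b2, Eya2 and Grp) had the highest Grp level, 619 CPM (581 to 659), found in 97.9% of its cells, with Gal at 33.1 (24.8 to 43.5). Atoh1, the transcription factor that starts HC differentiation, was among the 10 leading genes of both clusters 9 and 16. The Grp intervals of these clusters did not overlap each other, nor did those of Gal. These intervals cover counting error only. The share of all genes with intervals that also stay apart was not counted, so nothing is read from it about the members.

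Scg2 marked other HC-like clusters. In cluster 13 (121 cells, led by Spp1, Scg2 and Pgm2l1) it was at 197.5 CPM (176 to 221), and 62.8% of the cells had a UMI. In cluster 19 (59 cells with a median of 4362 UMIs, led by Sema6d, Slc17a8 and Atp2b2) it was at 369 CPM (299 to 450), in 57.6% of the cells. Cluster 13 held 52.4% and cluster 19 held 16.4% of the Scg2 UMIs of the kept P2 cells, with Gal at 4.50 CPM in cluster 13 and 3.84 in cluster 19 and Nppa at the same values. In the reverse direction, Scg2 was at 5.26 CPM in cluster 2, at 0.994 in cluster 9 and at 0 in cluster 16. Cluster 18 (62 cells, led by Ocm, Ighm and AI593442) had neither kind at a high level, with Scg2 at 5.96 CPM, Grp at 4.96 and Gal and Nppa at 1.99. Ocm encodes oncomodulin, a calcium buffer known from HCs of the striola, the central strip of the utricle. Cluster 14 (114 cells with a median of 1493 UMIs, led by Ralyl, Ccdc33 and Ttll3) had between 2 and 7 UMIs of each detected member, too few to place it.

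Chga and Chgb were found on both sides of this split, though at different levels. Across the 6 deeper HC-like clusters of P2, Chga ranged from 39.2 CPM in cluster 13 to 120 in cluster 9 and Chgb from 23.6 in cluster 16 to 207 in cluster 19. Cluster 18, with at most 4.96 CPM of Grp, Gal or Nppa, carried Chga at 82.4 CPM (65.6 to 102) and Chgb at 106 (87.0 to 128). The E14 cluster 28 and the P2 cluster 18, both with Ocm among their leading genes, were therefore alike in having the granins Chga and Chgb and little of Grp, Gal or Nppa, although no test ties the clusters of one age to those of the other. Ocm was also among the leading genes of the shallow unnamed P2 cluster 0, described below. That cluster had Grp at 289 CPM, Gal at 153 and Nppa at 53.8. In the Atoh1-led cluster 16 both granins were low in comparison with cluster 9, with Chga at 45.3 CPM (35.4 to 57.1) against 120 (108 to 133) and Chgb at 23.6 (16.6 to 32.5) against 70.6 (61.4 to 80.7).

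**Figure D2:**
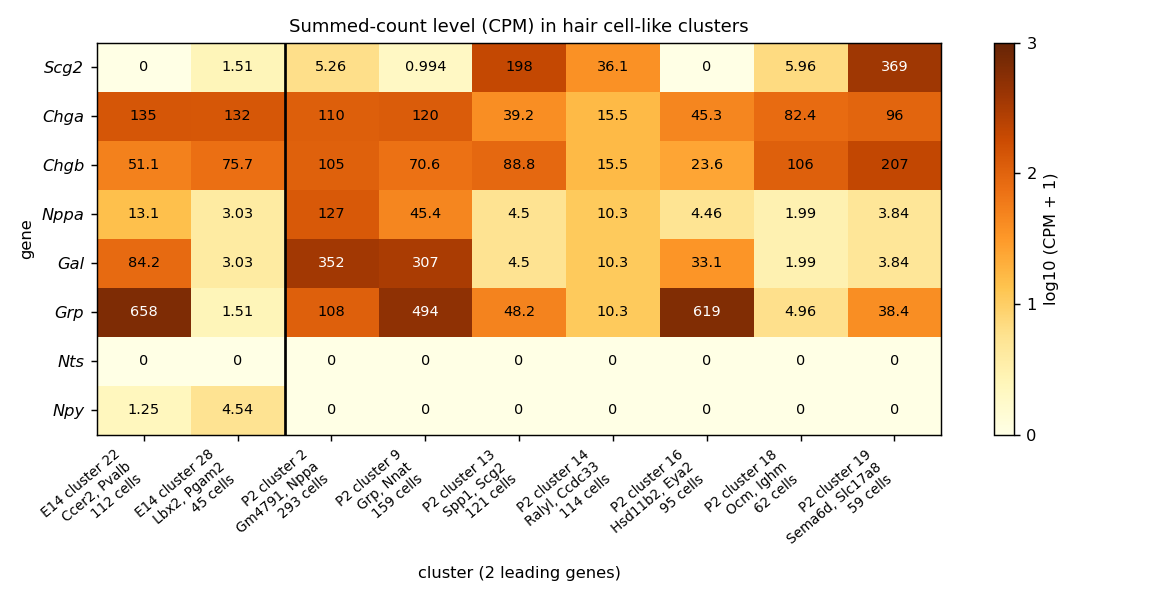
Level of each member (rows) in each HC-like cluster (columns, with the 2 leading genes and the number of cells), printed as CPM and coloured by log10 (CPM + 1). The black line separates E14 from P2. Scg2 is high in P2 clusters 13 and 19, where Gal and Nppa are at most 4.50 CPM, while Chga and Chgb are present in all columns.

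The split also showed in pairs of genes within cells. At 4000 UMIs, 79 P2 HC-like cells had Scg2 and 217 had Gal, and 4 cells had both where 22.3 would follow from the product of the shares, an observed over expected ratio of 0.179. For Scg2 and Nppa the count was 2 cells against 13.4 (0.150), and for Scg2 and Grp it was 16 against 32.5 (0.492). Nppa and Gal were found together in 69 cells against 36.7 (1.88). Over all HC-like cells, Scg2 with Chga (1.07) and with Chgb (0.972) and Chga with Chgb (1.04) lay near 1. Most of each departure followed the clusters: with shares taken within clusters, 3.96 cells were expected for Scg2 with Gal, 2.56 for Scg2 with Nppa and 58.8 for Nppa with Gal. The granin pairs of Scg2 departed from these within-cluster counts, with 25 cells against 17.2 for Chga and 22 against 29.5 for Chgb. Most of both departures lay in cluster 13, with 14 against 7.60 and 7 against 13.3. Their ratios there, 1.84 and 0.526, were the highest and the lowest of the pairs counted in single clusters, so they are extremes and no general rule. Of the 768 cells, 135 had none of the members, 276 had 1, 210 had 2, 100 had 3, 41 had 4 and 6 had 5.

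**Figure D3:**
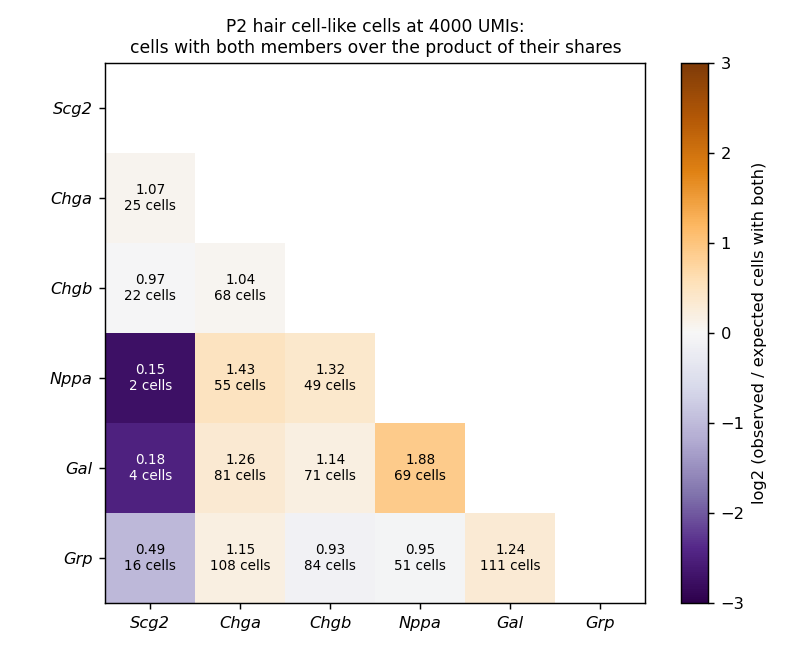
Pairs of members in 768 P2 HC-like cells thinned to 4000 UMIs. Each square gives the number of cells with both genes and its ratio to the product of the 2 shares, coloured by the log2 of that ratio. Scg2 with Gal (0.18) and with Nppa (0.15) is low, and Nppa with Gal (1.88) is high.

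Markers of HC stage and subtype divided the same cells, at the same depth, and part of that list of 13 genes is shown. Of 257 P2 HC-like cells with a UMI of Kcna10, a potassium channel gene listed here with type I HCs, 24.5% had Scg2 (19.4 to 30.2), against 3.13% (1.80 to 5.03) of the 511 without. For Gal the shares were 10.5% (7.04 to 14.9) and 37.2% (33.0 to 41.5), and for Nppa 6.23% (3.60 to 9.91) and 22.3% (18.8 to 26.2). With Calb2 the order was opposite. Scg2 was in 3.59% of the 501 cells with Calb2 and 22.9% of the 267 without, Nppa in 23.2% and 5.24%, and Gal in 34.5% and 16.5%. Anxa4, an annexin gene of type II HCs, gave 3.19% and 30.05% for Scg2, 21.1% and 5.42% for Nppa and 36.1% and 6.40% for Gal. Ocm and Slc17a8 divided the members differently. With Ocm, Scg2 was in 3.06% (0.636 to 8.69) of 98 cells, against 11.3% (9.04 to 13.99) of the 670 without. With Slc17a8, which encodes a vesicular glutamate transporter, Scg2 was in 18.0% of 377 cells and 2.81% of 391, but Nppa in 17.0% and 16.9%. Among the early markers, Grp followed Atoh1 and Nnat but not Gfi1. It was in 61.0% of the 318 cells with Atoh1 (55.4 to 66.4) and 27.1% of the 450 without (23.0 to 31.5). For Nnat the Grp shares were 68.3% and 26.8%, and for Pou4f3 42.3% and 27.9%. With Gfi1 the order was opposite, with Grp in 34.8% of 597 cells (31.0 to 38.8) and 63.2% of the 171 without (55.5 to 70.4). Chga was in 26.1% and 31.5% of cells with and without Kcna10 and Chgb in 34.2% and 25.8%. Both nevertheless differed by other markers, with Chga in 32.6% (28.7 to 36.6) of cells with Anxa4 and 21.7% (16.2 to 28.0) without, and Chgb in 22.0% (17.6 to 27.0) with Atoh1 and 33.33% (29.0 to 37.9) without. At E14, Grp was in 78.3% of 69 HC-like cells with Atoh1 and 40.2% of 87 without, but in 45.7% of 105 with Gfi1 and 80.4% of 51 without. It was in 1 of 22 E14 cells with Ocm (4.55%) against 65.7% of 134 without. The members and the subtype markers did not enter the clustering, but the clusters were made from the same cells, and these shares describe them and are no separate evidence.

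Several barcodes with HC markers were outside the HC-like clusters, and the members divided unevenly between them. At P2 the barcodes below the filter held 437 of the 1088 Scg2 UMIs in the library (40.2%), and 419 of these were in 756 barcodes that failed the mitochondrial limit of 15% alone. In those barcodes Scg2 was at 211 CPM (191 to 232) against 13.1 in kept cells, and Gal at 31.2 (23.9 to 40.0) against 67.0. Of these 756 barcodes, 254 had at least 4 of the 10 HC markers. Among the HC-like clusters the median mitochondrial share was highest in cluster 19 (13.9%), the cluster with the highest Scg2 level, and was 8.07% in cluster 18 and 3.85% to 5.12% in the others. Cluster 13, which held 52.4% of the Scg2 UMIs of the kept P2 cells, was at 5.12%. With the limit at 30%, Scg2 was at 64.1 CPM in P2 HC-like cells instead of 35.5, and its ratio to E14 was 172. At E14, the doublet step removed 284 of 497 barcodes with at least 4 HC markers, with a median of 51700 UMIs against 14909 for the 211 kept. Mesenchymal markers summed to 2558 CPM in the removed and 595.5 CPM in the kept ones, and SC markers to 2032 and 1207. The 1450 barcodes removed as doublets held 55.6% of the E14 Grp UMIs and 51.4% of those of Chga. The part of mitochondrial share and of doublets in the levels was not tested beyond these values.

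**Figure D4:**
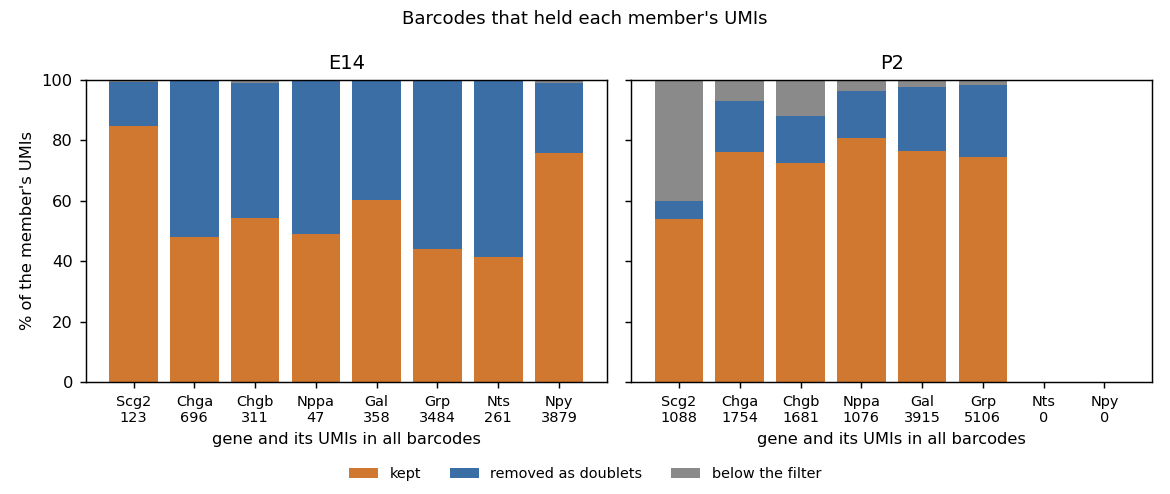
Share of each member's UMIs in kept cells (orange), in barcodes removed as doublets (blue) and in barcodes below the filter (grey) at E14 (left) and P2 (right), with the UMIs in all barcodes under each gene name. At P2, 40.2% of the Scg2 UMIs lie below the filter, against 2.55% of those of Gal.

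A shallow P2 cluster without a name (cluster 0, 368 cells with a median of 1731 UMIs, led by Lbx2, Trim45 and Ocm) had 5 HC markers and Grp at 289 CPM (256.5 to 325), Gal at 153 (130 to 180), Chga at 56.8, Nppa at 53.8, Chgb at 37.5 and Scg2 at 8.12. At E14, cluster 19 (118 cells with a median of 2493 UMIs, led by Ppp1r14a, Grp and Miat) had 2 HC markers, Pou4f3 and Lhx3, and as many SC markers, a tie. It had Grp at 302 CPM (254 to 355), Npy at 71.2 (49.3 to 99.5) and Chga at 12.6. With these 2 clusters counted as HCs, the level of Grp was 438 CPM at E14 and 249.5 at P2, that of Npy at E14 was 14.2, and Scg2, Nppa and Gal were still the members at least 2-fold higher at P2.

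Grp was the member with the most UMIs in SC-like cells, with 43.6% of the members' UMIs there at E14 and 59.3% at P2, and at E14 Npy had 27.5%, Gal 12.8% and Nts 12.2%. At E14 Grp was at 25.2 CPM (22.1 to 28.5) in 702 SC-like cells and at P2 at 21.4 (19.2 to 23.9) in 835. It reached 40.9 CPM (35.6 to 46.8) in P2 cluster 3 (289 cells, with Gjb6, Fgf3 and Anks1b as its leading genes), where 18.3% of the cells had a UMI, 8 cells had at least 10 and the highest had 21. Chga was at 3.05 CPM and Gal at 1.90 in that cluster. In P2 HC-like cells Grp made up 33.33% of the members' UMIs, and Gal made up 8.68% in SC-like and 29.4% in HC-like cells. The part of free RNA in the SC-like levels was not tested. At E14, Gal in SC-like cluster 11 (362 cells, led by Tectb, Otol1 and Ntf3) amounted to 66 UMIs, of which 41 were in 1 cell.

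Outside HC-like cells, Scg2 was highest in clusters of nonsensory or unnamed cells. At E14, cluster 6 (416 cells, led by Slc26a4, Cldn22 and Sfrp1) held 88 of its 104 UMIs (84.6%), at 16.9 CPM (13.5 to 20.8) but in 6.49% of the cells. Slc26a4 encodes pendrin, an anion exchanger of nonsensory inner ear epithelium, while 3 SC markers stood out in the cluster, which has no name here. At P2, cluster 20 (50 nonsensory epithelial-like cells, led by Nupr1, Prss56 and C1ql3) had Scg2 at 37.8 CPM (27.1 to 51.2) in 26.0% of its cells, with 1 UMI each of Chga and Gal. P2 cluster 7 (231 cells, led by Dhx58, Itgbl1 and Pdzd2, without a name) had it at 13.1 CPM (9.60 to 17.4).

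Among the kept E14 cells Nts was highest in SC-like cluster 25. In that cluster (58 cells, led by Jag1, Zpld1 and Spry2) it was at 69.9 CPM (48.4 to 97.7), and 44.8% of the cells had a UMI with a highest value of 4. Cluster 13 (282 cells, led by Zpld1, Msx1 and Hes5) followed at 5.43 CPM (3.32 to 8.39). Jag1 and Hes5 encode a Notch ligand and a Notch target. Outside these clusters the counts were concentrated in few cells, with 15 UMIs in a single cell of cluster 12 and 17 in a single cell of the nonsensory epithelial-like cluster 7. Of 261 Nts UMIs in all E14 barcodes, 152 were in barcodes removed as doublets. HC-like cells had none, but with doublets kept they had Nts at 9.503 CPM, and with HCs taken cell by cell at 3.00, in both cases at least 2-fold above the other cells.

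Of the 2944 Npy UMIs in kept E14 cells, 5 (0.170%) were in HC-like cells. Glial-like cluster 8 (392 cells, led by Foxd3, Ednrb and Npr3) had it at 572 CPM (544 to 601), held 52.8% of its UMIs and had a UMI in 56.1% of the cells. Npr3, a clearance receptor for natriuretic peptides, was at 363 CPM in the same cluster, while Nppa had no UMI in kept E14 cells other than HC-like ones. Nonsensory epithelial-like cluster 24 (70 cells, led by Pyy, Prss56 and Mt3) had a higher Npy level, 917 CPM (858 to 980), from 15 cells, and the 10 highest cells held 93.2% of it. Pyy encodes peptide YY, a peptide of the same family as neuropeptide Y, and 14 of these 15 cells also had a Pyy UMI. In the glial-like cluster 3 of 220 cells with Npy had Pyy. In E14 mesenchymal-like cells Npy was at 0.993 CPM, which serves as the background. At E14 melanocyte-, glial-, endothelial- and immune-like clusters were found, and P2 had no cluster named for any of these classes, so Npy in glia could not be followed to P2. In SC-like cells, which were found at both ages, Npy was at 15.85 CPM (13.45 to 18.55) in 702 cells at E14. Of its 155 UMIs there, 130 were in cluster 13 and 21 in cluster 25, both with Zpld1 among their leading genes. In cluster 13, 10 cells held 74.6% of the Npy UMIs. Npy had 0 UMIs in 835 SC-like cells at P2, with an upper bound of 0.241 CPM. No SC-like cluster of P2 had Zpld1 among its 10 leading genes, so the SC-like classes of the ages may not hold the same kinds of cells. The cause of this difference was not tested.

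**Figure D5:**
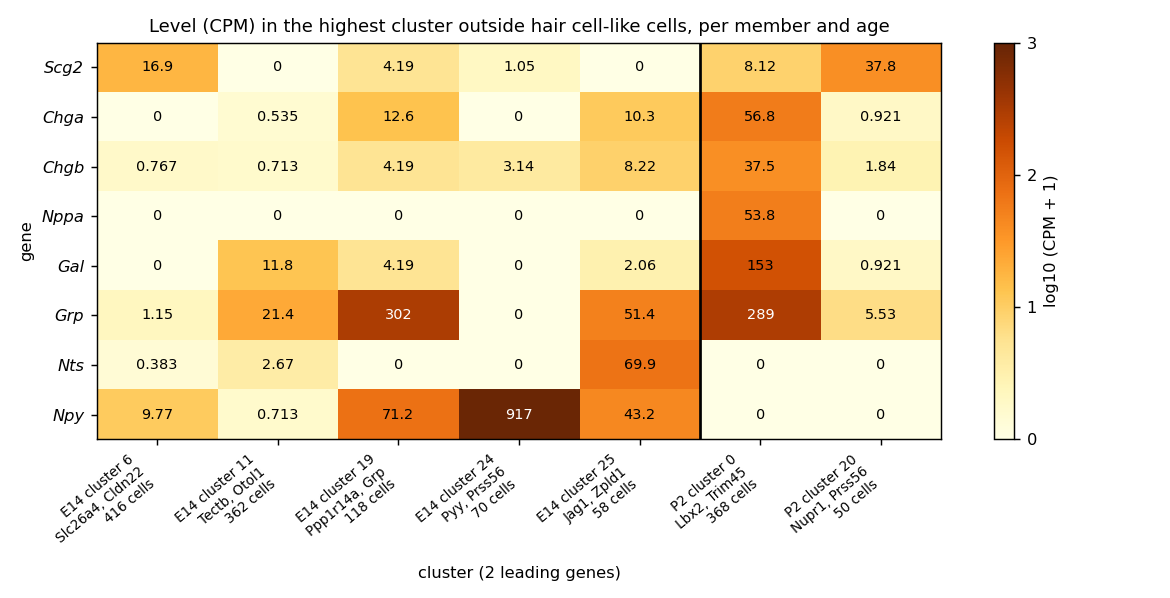
For each member and age, the cluster with its highest level outside HC-like cells (among clusters with at least 30 UMIs of it), with all members shown as CPM and coloured by log10 (CPM + 1). The black line separates E14 from P2. Npy reaches 917 CPM in E14 cluster 24 and Nts 69.9 in E14 cluster 25, and neither has a UMI at P2.

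Other genes of the pathway were examined in HC-like cells as lists that were chosen with earlier results of these data known. Of 4 other granins and granin-like genes, 3 reached 10 UMIs and none was 2-fold apart between the ages, with a median of 0.43 on the log2 scale against 0.03 over all genes. Scg3 (secretogranin III) was at 115 CPM at E14 and 155 at P2, and Scg5 (the chaperone 7B2) at 159 and 237. Of 10 processing enzymes, 8 were tested, 1 was higher and none lower (median 0.57). The higher one was Qpct, a glutaminyl cyclase gene, at 1.77 and 11.6 CPM (ratio 6.59, 2.52 to 24.5). Cpe (carboxypeptidase E) was at 384 and 430 CPM, Pcsk1 (prohormone convertase 1) at 2.65 and 4.38, and Pcsk2, the other neuroendocrine convertase, had no UMI at either age. Of 11 genes of dense-core vesicle release, all were tested, 2 were higher and none lower (median 0.03), and the higher ones, Ptprn2 (ratio 6.13, 1.03 to 249) and Rab27a (ratio 2.89, 0.449 to 121), each had 1 UMI at E14.

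Of 23 other neuropeptide genes, 8 were tested, none was higher and 1 was lower (median -0.47), namely Pomc, the precursor of melanocortins and an endorphin, at 35.8 and 15.8 CPM (ratio 0.441, 0.339 to 0.578). Of 13 receptors for the members' peptides, Npr2 and Sort1 were tested and neither was 2-fold apart (median -0.22). The galanin receptors had at most 1 UMI each in HC-like cells and Grpr had none. Of the HC stage and subtype genes, 12 of 13 were tested, 2 were higher and none lower (median 0.31), and these were Mapt (ratio 12, 3.26 to 100.1, from 2 UMIs at E14) and Calb2 (ratio 2.21, 2.02 to 2.42). The neuron markers summed to 1292 CPM in HC-like cells at E14 and 1731 at P2, against 27.4 and 133 in other cells, and 1 of the 8 was at 0 at each age. Their part in the members' levels was not tested.

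Over the 53 clusters of both libraries, which differ in depth and share 2 libraries, the genes whose levels were most like each member are given with Pearson's r of log2(CPM + 10), as a description. Chga was most like Chrna9 (0.969), a nicotinic receptor subunit of the efferent synapse, and Lhfpl5 (0.968), a component of the transduction complex. Chgb was most like Lrtm2 (0.975) and the granin gene Scg3 (0.972). Grp was most like Atoh1 (0.943) and Rasd2 (0.906). Nppa was most like Gm14635 (0.943) and Fer1l6 (0.939), and Gal like Eef1a2 (0.953) and again Gm14635 (0.937). Scg2 was most like Dusp26 (0.852) and Gm3294 (0.841). The values were lower for Nts, with Zfp960 (0.735) and Hhla1 (0.702), and for Npy, with L1cam (0.746) and Greb1 (0.723).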

How the data were processed

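The authors deposited raw UMI counts, 1 table of genes by barcodes for each age, made with Cell Ranger 3.1.0 according to the submitters' processing notes. Seurat 4.1.1 is also named there but did not enter these counts. Whether GRCm39, given in the study's methods, or mm10, which the labels name beside it, underlies the tables was not established. GENCODE M21, used for positions only, held 31011 of the 31053 gene IDs.

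The members, gene lists and markers were chosen with earlier results of these data known. A barcode entered with 500 genes or more, 1000 UMIs or more and a mitochondrial share up to 15%. Doublet scores came from 2 simulated doublets per barcode, and the top scores were dropped at a rate of 0.8% for every 1000 barcodes (1450 at E14, 204 at P2). Clusters were made by the Leiden method at resolution 1 on 2000 variable genes (members, list genes and mitochondrial, ribosomal and haemoglobin genes excluded), with 30 principal components and 15 neighbours. A class needed 3 markers (found in 10% of cells, 2-fold above other cells with 5 CPM added, and at 20% of the top cluster), no tie, and, for clusters with a median under 33.3% of that of the library, a marker among the 10 leading genes. Clusters with at least 5 cell cycle genes among those 10 stayed unnamed. The naming was settled once marker tables had been viewed.

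A ratio needed 10 UMIs in 1 group, and 3 counts served as the floor for a group at 0. Cells were thinned to 4000 UMIs for shares. Genes were named by rule: all members, list genes at least 2-fold apart between the ages (up to 4 per list), the 3 leading genes of a described cluster, and the 2 genes most like each member. Further genes were named after their values were seen, among them Scg3, Scg5, Cpe, Pcsk1, Pcsk2, Npr3, Pyy and the subtype markers. Alternatives were 9 planned (2 cell filters, doublets kept, 2 resolutions, another seed, HCs by 4 markers per cell, mean over cells, thinning) and 3 added after the data were seen (unnamed clusters with HC markers added, shallow clusters left out, mitochondrial limit of 30%). The steps were tested on simulated data. All steps ran in Python 3.11.15, using scipy 1.17.1 and numpy 2.4.6 for statistics, leidenalg 0.10.2 with igraph 0.11.9 and scikit-learn 1.9.0 for clusters, and pandas 2.3.3 and matplotlib 3.10.9.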

Additional observations from a re-analysis of the deposited data

Results flagged for a closer look

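Barcodes that were left out of the cells held several members at levels above those in kept cells, with intervals that do not overlap. The share of all genes that differ in this way was not counted, so nothing is read from it about the members. Below the filter at P2, Scg2 was at 138.5 CPM against 13.1 in kept cells, Chgb at 64.3 against 27.3 and Chga at 39.6 against 29.9. In barcodes removed as doublets at E14, Grp was at 55.5 CPM against 19.1, Chga at 10.3 against 4.17, Nts at 4.36 against 1.35, Gal at 4.04 against 2.68, Chgb at 3.98 against 2.11 and Nppa at 0.688 against 0.287. In those of P2, Grp was at 133 CPM against 84.9 and Gal at 89.6 against 67.0. The sets also differ in barcodes with at least 4 HC markers. At E14 these were 284 of the 1450 removed as doublets and 211 of the 10138 kept. At P2 they were 187 of 204 removed as doublets, 290 of 2170 below the filter and 1128 of 3877 kept. No explanation of these differences was tested.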

How the results depend on the processing

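No paired analysis was possible because each age has 1 library. Over the 12 alternatives, Scg2, Nppa and Gal were at least 2-fold higher at P2 in HC-like cells in each, joined by Chgb with doublets kept and with HCs taken cell by cell, and by Grp under the stricter filter. The count of members at least 2-fold lower at P2 was 0, and it became 1 (Grp) with no filter on cells, with the mean over cells, at 4000 UMIs and with the mitochondrial limit of 30%, 1 (Npy) at Leiden resolution 0.5 and with the unnamed clusters added, and 2 (Nts and Npy) with doublets kept and with HCs taken cell by cell. The stricter filter, with cells clustered and named anew, gave 46 HC-like cells at E14, in which Grp was at 1.47 CPM. The count of members at least 2-fold higher in HC-like than in other cells at E14 was 5. It became 3 (Chga, Chgb and Nppa) under that filter, and 6 (Nts joined) with doublets kept and with HCs taken cell by cell. At P2 it was 6 throughout. The range of the ratio of P2 to E14 was 12.5 to 172 for Scg2, 2.99 to 22.2 for Nppa, 2.80 to 77.0 for Gal, 0.592 to 1.82 for Chga, 1.08 to 4.25 for Chgb and 0.399 to 177 for Grp, with the highest Nppa, Gal and Grp values from the stricter filter. The causes of these moves were not tested. Counts limit Scg2 and Nppa most, with 1 and 23 UMIs in HC-like cells at E14, and the spread between animals is not measured.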

Other observations

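Several receptors for the members' peptides were highest outside HCs at E14, with Npr3 at 363 CPM in the glial-like cluster, Npr1 at 98.6 CPM in the endothelial-like cluster (29.6% of its cells) and Npy1r at 13.0 CPM in a mesenchymal-like cluster led by Car3, Ogn and Ntrk2. Ntsr1 and Npy5r had no UMI in the kept cells of E14. These genes were chosen after their values were seen.

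Other peptide genes were also found in HC-like cells, with Calca, the precursor of calcitonin gene-related peptide, at 51.5 CPM in E14 cluster 28, where 51.1% of the cells had a UMI, and at 17.2 CPM in all E14 HC-like cells against 8.77 at P2. Nmb, the precursor of neuromedin B, a relative of Grp, was at 22.5 CPM in E14 HC-like cells and 14.3 at P2, and at 30.3 CPM in cluster 28, where Grp had 1 UMI.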
